A study of Mus musculus with 3 samples.

Results

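The nuclear genes that encode the subunits of the mitochondrial respiratory chain and of ATP synthase were followed across the cell classes of 3 mouse liver single-cell RNA libraries. Members were the genes whose symbols mark a subunit of complex I (Ndufa, Ndufb, Ndufc, Ndufs and Ndufv genes), complex II (Sdha to Sdhd), complex III (Uqcr genes), complex IV (nuclear Cox5 to Cox8 genes; Cox4i1 and Cox4i2 do not match the name pattern and are not members) or complex V (Atp5 genes), with assembly factors left out. Of 55421 gene identifiers, 87 matched these patterns, and 4 of those were annotated as processed pseudogenes and left out, which gave 83 members under 82 symbols. They comprised 37 members of complex I, 4 of complex II, 8 of complex III, 16 of complex IV and 18 of complex V. Comparisons of the 9 iron-containing subunits among the members used 7 that carry iron-sulfur clusters (Ndufs1, Ndufs7, Ndufs8, Ndufv1, Ndufv2, Sdhb and Uqcrfs1) and 2 that anchor heme (Sdhc and Sdhd), against 74 other members. The heme-bearing Cyc1 of complex III and Ndufab1 of complex I do not match the name pattern either. They are therefore in neither the 9 nor the complex sums. Among the 83, 79 had at least 50 UMIs (unique molecular identifiers, one per captured RNA molecule) in all cells together. The other 4 were Cox7b2 with 2 UMIs, Cox8b with 11, Cox8c with 1, and a second Atp5o identifier with 0.

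All 3 mice were wild type, and all 3 were fed an iron-deficient diet of 2 to 6 ppm iron for 1 week. The IDD+HTF mouse then received 10 mg of holo-transferrin, the iron-loaded plasma iron carrier, intravenously, the IDD+HID mouse spent 18 h on high-iron chow (2% carbonyl iron), and the IDD mouse served as the control. No mouse on an iron-replete diet throughout was among them, and the labels state neither strain nor age nor how long after the injection the liver was taken. Each library came from 1 mouse and mixed 5% hepatocyte suspension with 95% nonparenchymal suspension, so cell shares reflect that mixing. With 1 mouse per group there was no replicate check, no test between groups was possible, and a gene was called higher or lower only by a rule of size, a ratio of at least 1.5-fold and 50 or more UMIs over both libraries.

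Complex I takes electrons from NADH through a flavin and a chain of iron-sulfur clusters, complex II takes them from succinate through iron-sulfur clusters and a heme, and complex III passes them to cytochrome c through the Rieske iron-sulfur protein and hemes. Complex IV reduces oxygen with hemes and copper, and complex V makes ATP from the proton gradient without an iron cofactor. Most of the subunits are nuclear-encoded and imported into mitochondria. Part of complexes I, III, IV and V is encoded by mitochondrial DNA, so those complexes draw on both genomes. In liver, hepatocytes are rich in mitochondria, and several complex IV subunits have tissue-specific isoforms, such as the heart and muscle forms Cox6a2, Cox7a1 and Cox8b.

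The members lay on 19 chromosomes, 3 of them on X. Promoter windows, from 250 bases before to 50 bases after the annotated start, were available in RefSeq (GRCm38.p6) for 66 of the 82 symbols, in 71 windows. Exact cores of factors known for nuclear mitochondrial genes were searched on both strands. The NRF1 core GCATGCGC (GCGCATGC on the other strand, overlapping where both occur) was in 10 of the 71 member windows (14.1%) and in 2.71% of all 32851 windows. The ETS core of GABPA, CCGGAAG, occurred in 16 (22.5%, against 8.86% of all windows), the YY1 core AAGATGGC in 9 (12.7%, against 2.75%) and the ERR core TCAAGGTCA in 2 (2.82%, against 0.423%). Of the general elements, CCAAT lay in 42.3% of member windows and 37.4% of all, CAGGTG in 21.1% and 20.2%, and ACGTG in 23.9% and 19.6%. These are letter matches in a window, some windows of a gene overlap, and binding was not measured. The 4 windows below belong to members that recur in the results, each read 5′ to 3′ along the gene's strand with matches to the NRF1, ETS, YY1 or ERR core in capitals. Atp5j2 (subunit f of ATP synthase, chr5:145191492-145191791, minus strand) had the largest difference among members in stellate-like cells. Cox7a2l (which joins complexes III and IV in supercomplexes, chr17:83514284-83514583, minus strand) was among the most different members in sinusoidal endothelial-like, stellate-like, hepatocyte-like and vascular endothelial-like cells. Atp5k (subunit e, chr5:108434350-108434649, minus strand) ran against the other members when both iron treatments were compared, and Atp5g2 (an isoform of the c-ring subunit, chr15:102670998-102671297, minus strand) was lower than in the control in sinusoidal endothelial-like cells while most members were not.
Atp5j2: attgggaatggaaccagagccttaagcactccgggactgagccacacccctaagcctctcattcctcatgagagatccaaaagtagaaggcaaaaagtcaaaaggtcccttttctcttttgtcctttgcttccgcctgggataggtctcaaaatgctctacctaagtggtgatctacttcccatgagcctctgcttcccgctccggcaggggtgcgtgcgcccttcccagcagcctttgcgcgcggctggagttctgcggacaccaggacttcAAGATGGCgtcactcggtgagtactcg
Cox7a2l: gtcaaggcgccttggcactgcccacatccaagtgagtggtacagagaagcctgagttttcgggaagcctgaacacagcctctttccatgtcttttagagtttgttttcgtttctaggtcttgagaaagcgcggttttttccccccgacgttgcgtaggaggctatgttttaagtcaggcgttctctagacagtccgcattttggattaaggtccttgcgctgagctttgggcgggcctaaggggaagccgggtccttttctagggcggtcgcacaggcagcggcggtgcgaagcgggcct
Atp5k: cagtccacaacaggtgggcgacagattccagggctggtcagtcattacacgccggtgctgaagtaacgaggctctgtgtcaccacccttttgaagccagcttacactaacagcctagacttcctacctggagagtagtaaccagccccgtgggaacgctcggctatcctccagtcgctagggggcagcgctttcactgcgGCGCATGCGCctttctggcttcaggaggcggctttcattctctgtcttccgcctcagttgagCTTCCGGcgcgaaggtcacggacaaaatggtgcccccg
Atp5g2: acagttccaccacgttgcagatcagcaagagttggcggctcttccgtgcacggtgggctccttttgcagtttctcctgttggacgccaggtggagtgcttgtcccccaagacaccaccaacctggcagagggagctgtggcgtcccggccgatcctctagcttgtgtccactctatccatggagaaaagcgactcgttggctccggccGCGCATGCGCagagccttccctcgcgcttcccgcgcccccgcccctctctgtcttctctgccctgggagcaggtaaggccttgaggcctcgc
Atp5j2 carried the YY1 core just after its start, Cox7a2l carried none of the 4 cores, Atp5k carried the NRF1 core and the ETS core on the opposite strand, and Atp5g2 carried the NRF1 core.

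The libraries held 55478904 UMIs for IDD+HTF, 75404660 for IDD+HID and 34552858 for IDD, in 3203, 3538 and 1311 cells, with a median of 4449, 8596 and 3639 UMIs per cell in that order. Doublet calling marked 0.156% of barcodes in IDD+HTF and 0.197% in IDD+HID, too few for the caller to have worked there, and 1.72% in IDD. Each pair of libraries shared 1 cell barcode. Every class named below showed its own markers: the 10 stellate markers summed to 20329 CPM (UMIs of a gene per 1000000 UMIs of the class) in IDD+HTF, 22801 in IDD+HID and 22071 in IDD stellate-like cells, against at most 335 CPM in sinusoidal endothelial-like cells. The vascular endothelial-like clusters scored highest for sinusoidal endothelial markers and were named by the 3 vascular markers among the 10 leading genes of each. Vascular markers summed to 3933, 3120 and 4583 CPM there in that order of libraries. In sinusoidal endothelial-like cells they summed to 1768, 1420 and 1514 CPM. Values are CPM of UMIs summed over the cells of a class and library, and since reads come from the 3' end they are not divided by gene length. Many members have processed pseudogenes elsewhere in the genome, and how the authors' counting split reads between such copies is not stated, so single levels carry that uncertainty. Intervals are 95% and cover counting error only. In droplets of 100 UMIs or fewer, taken as free RNA, the members summed to 6153 (IDD+HTF), 7287 (IDD+HID) and 3911 CPM (IDD).

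**Figure D1:**
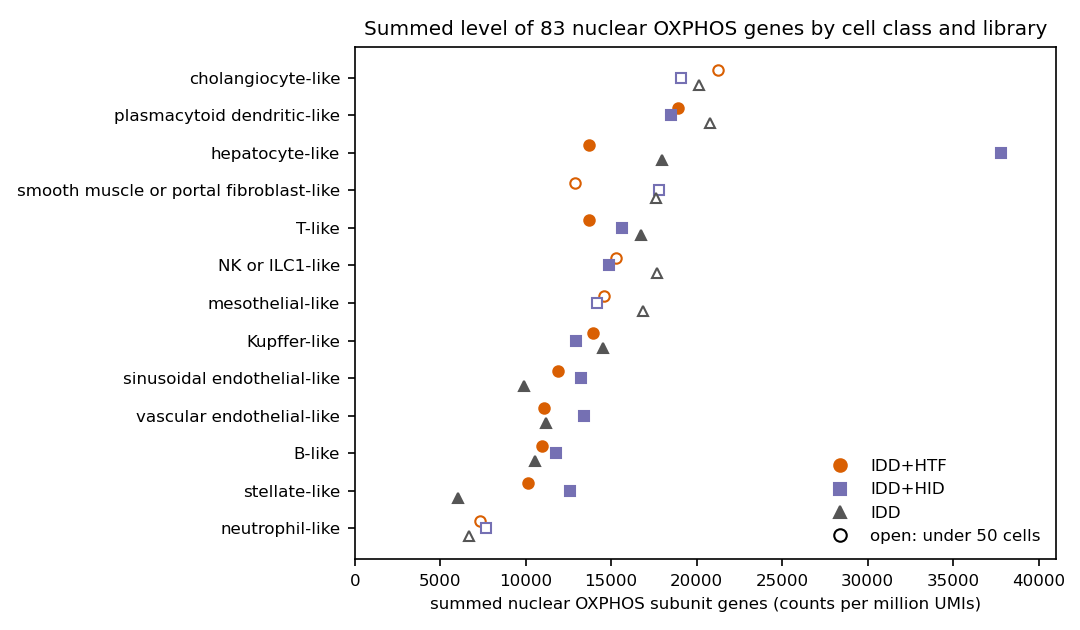
Summed CPM of the 83 members (horizontal axis) in each named cell class (rows) for the IDD+HTF, IDD+HID and IDD libraries, 1 mouse each. Open symbols mark classes with under 50 cells in a library. Stellate-like cells held 10157 and 12618 CPM in the iron-treated libraries against 6036 in IDD, and hepatocyte-like cells of IDD+HID stood at 37818 CPM.

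Members took a different share of RNA in different cell classes. Pooled over libraries, 26 members had their highest level in cholangiocyte-like and 24 in hepatocyte-like cells, while Kupffer-like and vascular endothelial-like cells each held the highest level of 1 member. The hepatocyte-like level depends on which cells are pooled. That class summed to 13732 CPM in IDD+HTF, 37818 in IDD+HID and 17956 in IDD. Its cluster 8 alone summed to 53243, 47048 and 49652 CPM, above every cholangiocyte-like sum given below. Neutrophil-like cells had low sums, 7346 CPM in IDD+HTF, 7695 in IDD+HID and 6697 in IDD, and stellate-like cells of IDD were lower still at 6036 CPM. Cholangiocyte-like cells had 21254, 19110 and 20123 CPM, and plasmacytoid dendritic-like cells 18927, 18487 and 20808 CPM, in the same order of libraries. The ranges of cholangiocyte-like and plasmacytoid dendritic-like cells overlapped, and both lay above all neutrophil-like values. Cholangiocyte-like and neutrophil-like classes held only 6 to 33 cells per library.

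Stellate-like cells, the vitamin A storing pericytes of the sinusoid, showed the broadest difference among nonparenchymal classes (144 cells in IDD+HTF, 120 in IDD+HID and 136 in IDD). Members summed to 10157 CPM with IDD+HTF and 6036 CPM with IDD alone, a 1.68-fold ratio (1.63 to 1.74). In IDD+HID they summed to 12618 CPM, 2.09-fold of the same control value (2.02 to 2.16). Of 74 measured members, 49 were at least 1.5-fold higher and 0 lower in IDD+HTF than in IDD, where 24.5% of all measured genes were higher and 10.9% lower. Between IDD+HID and IDD, 60 of 74 were higher and 0 lower, with 31.3% of all genes higher and 16.2% lower. The members' median log2 ratio was 0.75 in the first comparison and 1.06 in the second, beside medians of 0.13 and 0.19 over all genes. Both comparisons share the 1 IDD library, so anything peculiar to that library enters both. Across single cells, the members' share of UMIs had a median of 0.930% in IDD+HTF (quartiles 0.420 and 1.17), 1.17% in IDD+HID (0.653 and 1.43) and 0.415% in IDD (0.260 and 0.641). The upper quartile of the control lay below the median of both treated libraries, and the cell distributions overlapped.

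**Figure D2:**
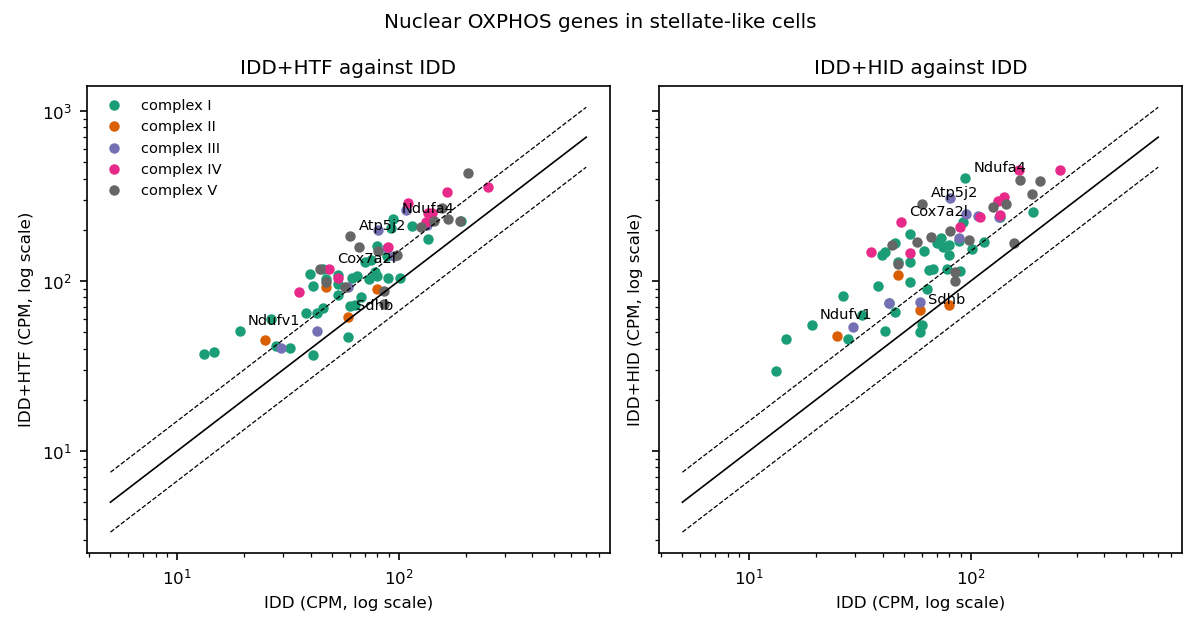
CPM of each measured member in stellate-like cells, IDD+HTF (left) or IDD+HID (right) on the vertical and IDD on the horizontal axis, both log scales, with 1 point per gene coloured by complex, a solid line at equal levels and broken lines at 1.5-fold. Atp5j2 lies above the upper broken line at 183 and 285 CPM against 60.3 in IDD, while Sdhb lies near the solid line.

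Complex I members of stellate-like cells summed to 3837 CPM in IDD+HTF, 4838 CPM in IDD+HID and 2372 CPM in IDD, and 23 and 29 of 37 were higher in the treated libraries. Ndufa8, an accessory subunit facing the intermembrane space, had 110, 143 and 39.7 CPM in that order. Ndufa4, named with complex I but now assigned to complex IV, had 230, 403 and 94.1 CPM, 4.29-fold in IDD+HID over IDD (3.31 to 5.63). Both treated libraries stood above the control for these 2 genes, IDD+HID highest. Ndufb4, an accessory membrane-arm subunit, rested on few UMIs, 52 in IDD+HTF, 48 in IDD+HID and 9 in IDD, and its ratio of IDD+HTF over IDD was 2.82 (1.38 to 6.50).

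Complex II was the least different. Its 4 members summed to 289 CPM in IDD+HTF, 295 CPM in IDD+HID and 210 CPM in IDD. Sdha, the flavoprotein that oxidizes succinate, had 92.5, 109 and 47.0 CPM, and Sdhd, a membrane anchor that binds heme, had 45.2, 47.4 and 25.0 CPM in the same order, both at least 1.5-fold above IDD in each treated library. Sdhb, the iron-sulfur subunit, had 61.6, 67.1 and 58.8 CPM, and Sdhc, the other anchor, 89.6, 72.0 and 79.4 CPM. Those 2 stayed within 1.5-fold, and their intervals included a ratio of 1 in both comparisons.

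Complex III summed to 1152 CPM in IDD+HTF, 1417 CPM in IDD+HID and 636 CPM in IDD, with 5 and 7 of 8 members higher. Uqcrb, a small core-stabilizing subunit, had 140, 247 and 95.5 CPM, and Uqcrfs1, the Rieske iron-sulfur protein, had 50.9, 74.5 and 42.6 CPM. For both, IDD+HID was past 1.5-fold over IDD and IDD+HTF was not. Uqcrc1, a core protein, was past it in IDD+HTF alone, with 91.7, 75.1 and 58.8 CPM, though the treated libraries differed by less than 1.5-fold.

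Complex IV had the highest proportion of members past the limit, 9 of 10 measured in IDD+HTF and 10 of 10 in IDD+HID. Its sums were 2175, 2708 and 1165 CPM in IDD+HTF, IDD+HID and IDD. Cox7a2l had 118, 222 and 48.5 CPM, with 4.57-fold in IDD+HID over IDD (3.19 to 6.74). Cox5a, a matrix-side subunit, had 86.0, 147 and 35.3 CPM, and Cox7c, a small membrane subunit, 285, 238 and 110 CPM. The ubiquitous isoforms followed: Cox6a1 had 252, 244 and 135 CPM, Cox6b1 250, 311 and 141, Cox7a2 222, 295 and 132, and Cox8a 358, 447 and 253. Cox8a was the only one of the 10 under the limit in IDD+HTF.

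Complex V summed to 2704 CPM in IDD+HTF, 3361 CPM in IDD+HID and 1652 CPM in IDD, with 10 and 12 of 15 measured members higher. Atp5j2 had 183, 285 and 60.3 CPM, from 256, 463 and 41 UMIs, which is 3.05-fold in IDD+HTF over IDD (2.18 to 4.34) and 4.73-fold in IDD+HID over IDD (3.43 to 6.68). The c-ring genes behaved differently from one another. Atp5g1 had 73.1, 100 and 85.2 CPM and stayed within 1.5-fold, Atp5g3 had 141, 175 and 98.5 CPM and passed it in IDD+HID, and Atp5g2 had 12, 23 and 19 UMIs in IDD+HTF, IDD+HID and IDD and was too sparse to be measured. Atp5k had 267, 167 and 157 CPM, so IDD+HID lay near the control and IDD+HTF above both.

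Between the iron treatments, 12 of 74 stellate-like members were higher and 1 lower in IDD+HID than in IDD+HTF (background 8.42% higher, 8.85% lower), with a median log2 ratio of 0.35. Cox7a2l (log2 0.91), Atp5c1 (the gamma subunit, 0.88) and Uqcrb (0.82) led, and Atp5k was the one member lower (-0.67). Without cells that held markers of another class the count was 37 of 69 higher and 0 lower (background 15.5% higher), and with means over cells 23 of 74 higher and 0 lower (13.5%).

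Other measures moved with these values in stellate-like cells. Median UMIs per cell were 7710 in IDD+HTF, 10298.5 in IDD+HID and 4123 in IDD. Ribosomal RNA and repeat transcripts took 7.22%, 5.19% and 10.5% of UMIs, and the nuclear RNA Malat1 30065, 22220 and 47016 CPM. Sinusoidal endothelial markers summed to 9504, 11163 and 3057 CPM inside the stellate-like class, beside 23174, 25134 and 18850 CPM in sinusoidal endothelial-like cells themselves, and Kupffer markers to 2422, 1669 and 238 CPM. Without cells in which markers of another class exceeded 0.5% of UMIs, 91, 71 and 118 cells remained, the sinusoidal endothelial markers summed to 737, 623 and 485 CPM, and the members summed to 7858, 11187 and 5220 CPM. In those cells 30 of 63 measured members were higher and 0 lower in IDD+HTF than in IDD (background 16.1% higher), and 55 of 67 were higher and 0 lower in IDD+HID than in IDD (background 23.8%). Their median UMIs were 5500, 6921 and 3912.5 and their stellate markers 36906, 39360 and 26120 CPM, so depth and marker level still differed between libraries. Within cells of 2000 to 8000 UMIs, 16 of 39 members were higher in IDD+HTF than in IDD (background 16.1%), and IDD+HID kept only 29 such cells and gave no value. The part of depth and RNA quality in the difference was not tested.

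Companion lists put the members in context. The mtDNA-encoded subunits of the same complexes ran the other way in stellate-like cells, with summed levels of 21632 CPM in IDD+HTF, 22281 CPM in IDD+HID and 41516 CPM in IDD, and 11 and 10 of 12 measured genes at least 1.5-fold lower than in IDD. Cytosolic ribosomal protein genes were higher together with the members, 49 of 75 in IDD+HTF and 65 of 75 in IDD+HID, with 3 and 0 lower. Mitochondrial ribosomal protein genes were higher for 18 of 51 and 33 of 57, and assembly factors for 7 of 17 and 10 of 22, with 1 and 2 lower. Tricarboxylic acid cycle genes had 3 of 10 and 3 of 11 higher, and glycolysis genes 3 of 14 and 4 of 14. Regulators of mitochondrial biogenesis had 0 of 5 higher in IDD+HTF and 1 of 5 higher and 1 lower in IDD+HID. The counts of the 2 enzyme lists lay near the all-gene shares of 24.5% and 31.3%.

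Sinusoidal endothelial-like cells, which form the fenestrated wall of the sinusoid, had 780 cells in IDD+HTF, 1162 in IDD+HID and 331 in IDD. Member sums were 11878, 13222 and 9873 CPM, 1.20-fold in IDD+HTF over IDD (1.18 to 1.23) and 1.34-fold in IDD+HID over IDD (1.32 to 1.36). Against IDD, 5 members of 75 were higher and 1 lower in IDD+HTF (background 9.71% higher and 10% lower), and 18 were higher and 1 lower in IDD+HID (14.2% and 19.6%). The split depended on scaling. With TMM it became 17 higher and 1 lower in IDD+HTF (all genes 15.7% and 6.87%) and 41 higher and 1 lower in IDD+HID (all genes 25.8% and 13%), because that scaling raised log2 ratios by 0.14 and 0.24. In CPM the members' medians were 0.26 and 0.39, beside 0.02 and -0.01 for all genes.

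Cox7a2l led the higher members, with 204 CPM in IDD+HTF, 272 in IDD+HID and 104 in IDD. Atp5c1 had 117, 159 and 67.7 CPM, and Cox5a had 86.9, 147 and 67.7 CPM. For Cox5a the treated libraries differed from each other as well, by 1.69-fold (1.53 to 1.88). Uqcrfs1 had 43.4, 63.0 and 33.8 CPM, the only iron-containing subunit past 1.5-fold in this class, in IDD+HID over IDD. Atp5g2 was the member lower in both, with 8.15, 11.3 and 22.0 CPM from 44, 130 and 28 UMIs. Cox7c had 352, 251 and 216 CPM and Atp5k 325, 195 and 206 CPM, so both were past 1.5-fold in IDD+HTF only. Between treatments, Cox5a, Atp5h, Atp5f1 and Ndufb9 were higher in IDD+HID and Atp5k lower (4 and 1 of 75, background 4.89% and 11.7%).

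The mtDNA-encoded subunits summed to 28185 CPM in IDD+HTF, 27677 CPM in IDD+HID and 44527 CPM in IDD in these cells, 8 of 12 and 9 of 13 lower, and cytosolic ribosomal protein genes to 42747, 48553 and 29804 CPM. Median UMIs were 6171, 9916.5 and 3409. The make-up by cluster also differed: cluster 0 held 58.7% of the class in IDD+HTF, 60.0% in IDD+HID and 24.5% in IDD. Within cluster 0, 9 of 73 and 17 of 75 members were higher than in IDD, where 16.9% and 20.7% of all genes were, so neither count stood out. Within cluster 4, 10 of 73 and 31 of 74 were higher, where 10.9% and 16.8% of all genes were, with at most 1 member lower in each cluster and comparison.

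**Figure D3:**
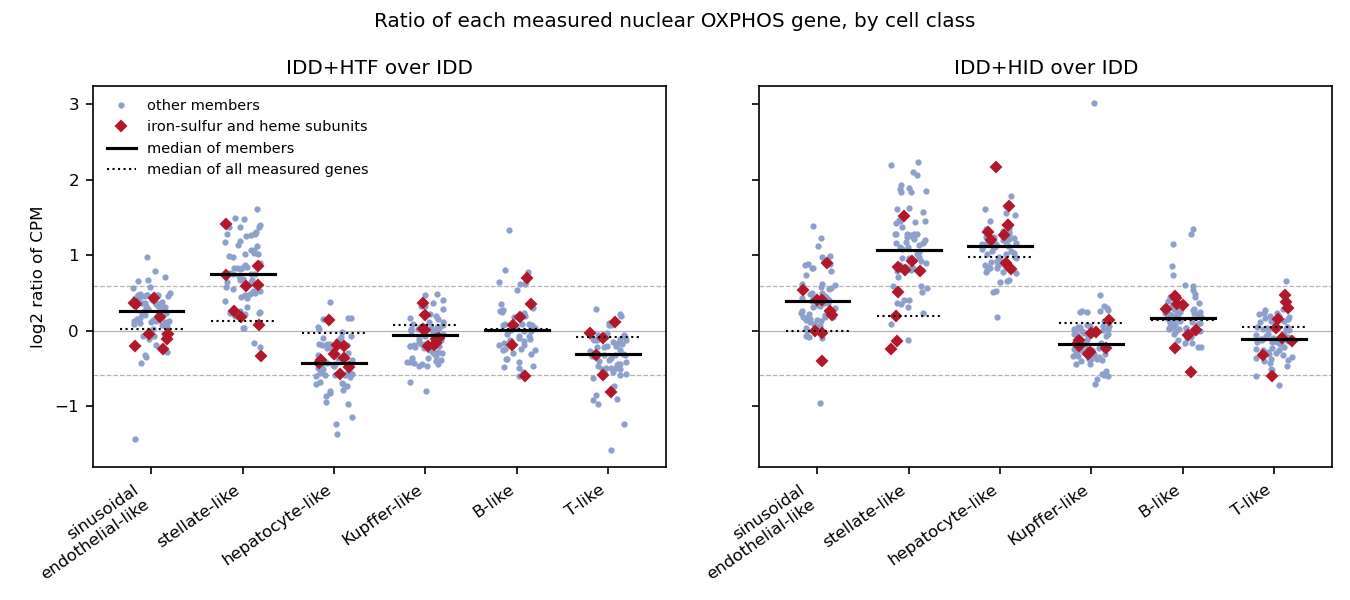
Log2 ratio of each measured member (points, vertical axis) by cell class (horizontal axis) for IDD+HTF over IDD (left) and IDD+HID over IDD (right), with red diamonds for iron-sulfur and heme subunits, a solid bar at the members' median, a dotted bar at the median of all measured genes and broken lines at 1.5-fold. Stellate-like members lie mostly above 0 in both panels, while Kupffer-like members centre near 0, at medians of -0.06 and -0.18.

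Hepatocyte-like cells gave the widest range of member sums, and their clusters held the cells in different proportions in the 3 libraries. The class had 1032 cells in IDD+HTF, 261 in IDD+HID and 246 in IDD, and members summed to 13732, 37818 and 17956 CPM. Against IDD, 0 of 73 members were higher and 19 lower in IDD+HTF (background 18.4% and 14.3%), and in IDD+HID 70 were higher and 0 lower (64.8% and 11.6%), a count to be read against that background. The 19 lower members in IDD+HTF became 54 of 72 at a mitochondrial limit of 10% (all genes 28.1%), 34 of 73 in cells of 2000 UMIs or more (19.2%), 37 of 72 in cells of 2000 to 8000 UMIs (21.4%) and 2 of 73, with 2 higher, at a limit of 40% with new clusters (6.27%). Between treatments, 71 of 73 were higher in IDD+HID and 0 lower (63.2% and 14.5%). TMM changed IDD+HID over IDD to 6 higher and 1 lower (all genes 23.7% and 29.3%) and IDD+HID over IDD+HTF to 29 higher and 1 lower (all genes 21% and 34.3%), with shifts of -0.94 and -1.05 on the log2 scale.

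Cluster 8 held 19.1% of hepatocyte-like cells in IDD+HTF, 67.0% in IDD+HID and 23.6% in IDD, and cluster 1 held 61.4%, 14.2% and 61.4%. In cluster 8 members summed to 53243, 47048 and 49652 CPM, and in cluster 1 to 4039, 7792 and 4821 CPM. Cluster 8 exceeded cluster 1 by 13.2-fold, 6.04-fold and 10.3-fold, with every measured member at least 1.5-fold higher, 72 of 72, 73 of 73 and 62 of 62, where 57.9%, 68.1% and 60.5% of all measured genes were. Ribosomal RNA and repeats took 6.57%, 3.40% and 5.03% of UMIs in cluster 8 and 42.8%, 29.0% and 41.2% in cluster 1, and hepatocyte markers 105366, 113384 and 113232 CPM against 35231, 51940 and 35603 CPM. The members were not among the genes used to cluster, and the part of RNA quality in the gap between clusters was not tested.

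**Figure D4:**
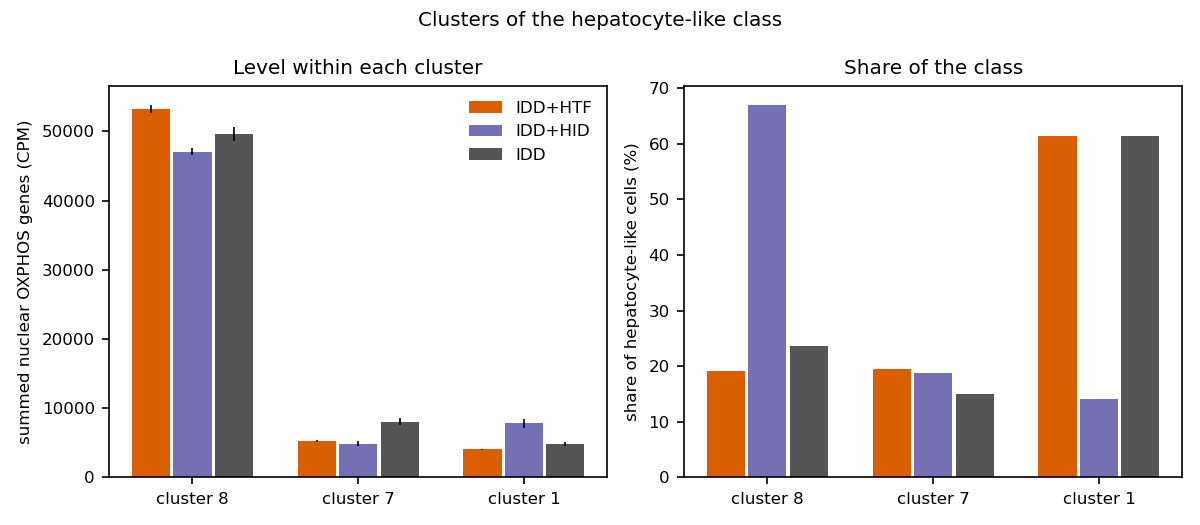
Summed member CPM (vertical axis) in hepatocyte-like clusters 8, 7 and 1 for the IDD+HTF, IDD+HID and IDD libraries with 95% Poisson intervals (left), and the percent of hepatocyte-like cells in each cluster (right). Cluster 8 lies between 47048 and 53243 CPM in all 3 libraries, far above cluster 1 at 4039 to 7792 CPM.

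In cluster 1, 2 of 57 measured members were higher and 13 lower in IDD+HTF than in IDD (background 23.2% and 14.9%). Its 37 cells in IDD+HID were too few to compare. Inside cluster 8 few members passed the rule of size. Of 72 members measured there, 6 were higher and 4 lower in IDD+HTF than in IDD (background 20.3% and 8.31%), and of 73, 3 were higher and 3 lower in IDD+HID than in IDD (40.2% and 8.37%). Between the treatments 2 were higher and 6 lower in IDD+HID than in IDD+HTF (27.9% and 7.84%). Uqcrfs1 had 598 CPM in IDD+HTF, 611 in IDD+HID and 410 in IDD. Atp5g1 had 679, 879 and 1264 CPM, lower than IDD in both, and Cox7a2l had 241, 269 and 140 CPM, higher in both. Ndufs1, the largest iron-sulfur subunit of complex I, had 47.2, 90.3 and 27.0 CPM but rested on 25, 70 and 5 UMIs. At the level of the whole class Ndufs1 had 18.2, 74.0 and 16.5 CPM, Uqcrfs1 134, 486 and 154, and Cox7a2l 85.7, 227 and 65.9. These were the 3 members with the highest ratio of IDD+HID over IDD. In IDD+HTF the lowest ratios to IDD were those of Atp5g1 (log2 -1.37), Atp5l (subunit g, -1.24) and Uqcrb (-1.14).

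Kupffer-like cells, the resident macrophages that recycle red cell iron, showed little difference in summed level. Sums were 13958 CPM in IDD+HTF, 12951 CPM in IDD+HID and 14531 CPM in IDD, ratios to IDD of 0.961 (0.946 to 0.976) and 0.891 (0.878 to 0.905). Cluster 16 held 18.0% of the class in IDD+HTF, 53.9% in IDD+HID and 10.5% in IDD, with member sums of 11921, 12251 and 12251 CPM, and cluster 2 held the rest, with 14391, 13819 and 14837 CPM. Within cluster 2 the ratios to IDD were 0.970 and 0.931, and cluster 16 had too few IDD cells to be compared with IDD. Between the treatments the ratio of IDD+HID over IDD+HTF was 0.960 in cluster 2 and 1.03 in cluster 16. In IDD+HTF 0 of 74 members were higher and 2 lower (background 13.3% and 6.03%), namely Atp5g2 and Ndufa12. In IDD+HID 1 of 75 was higher and 4 lower (17.1% and 8.59%). The higher one was Cox6b2, the testis isoform of Cox6b, at 3.56, 6.27 and 0.776 CPM from 23, 56 and 1 UMIs, so its control value is a single UMI, and Ndufb4, Uqcr10 and Atp5k led the lower ones. Atp5k had 339, 178 and 271 CPM, and Ndufa3, a small complex I subunit, 282, 171 and 226 CPM, both lower in IDD+HID than in IDD+HTF, where 1 of 76 members was higher and 5 lower (6.74% and 7.37%). Cox5a was at its highest among classes here, at 591, 572 and 686 CPM. The upper limit of free RNA in these cells, set by hepatocyte markers, was 21.0%, 17.4% and 38.1% of UMIs, and subtracting it gave 20 of 74 members lower in IDD+HTF and 38 of 75 in IDD+HID, where 23.6% and 27% of all genes were lower. Means over cells put more members higher than lower in both comparisons with IDD. In cells of 2000 to 8000 UMIs this held for IDD+HID, while more members were lower in IDD+HTF than under the main limits. No share of all genes is given for these settings, so no direction particular to the members is read from them.

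Lymphocyte-like classes showed no common direction. B-like members summed to 10950 CPM in IDD+HTF, 11800 CPM in IDD+HID and 10549 CPM in IDD, with 8 of 63 higher and 2 lower in IDD+HTF (background 10.8% and 8.26%) and 7 of 73 higher and 0 lower in IDD+HID (18.8% and 8.58%). Ndufb2, an accessory complex I subunit, had 71.3, 63.2 and 28.4 CPM, from 50, 143 and 11 UMIs. T-like members summed to 13700, 15645 and 16746 CPM, with 0 of 68 higher and 11 lower in IDD+HTF (10.3% and 11.7%) and 1 of 74 higher and 3 lower in IDD+HID (15.2% and 8.46%). Ndufs3, a core subunit of the complex I peripheral arm, had 28.5, 63.2 and 85.3 CPM from 20, 114 and 38 UMIs, and Atp5g1 had 111, 182 and 263 CPM. Both were lowest in IDD+HTF and highest in IDD. Between the treatments, 8 of 73 B-like members were higher and 3 lower in IDD+HID than in IDD+HTF (14.2% and 5.72%), and 12 of 74 T-like members higher and 2 lower (14% and 5.71%). In both classes Cox7c and Ndufa3 were among those lower.

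Vascular endothelial-like cells, with 83 cells in IDD+HTF, 148 in IDD+HID and 54 in IDD, had member sums of 11072, 13412 and 11199 CPM. Cluster 14 held 77.1%, 81.8% and 59.3% of the class, with sums of 11231, 13221 and 9522 CPM. Cluster 19 held the rest, with 10348, 14324.5 and 12943 CPM. IDD+HTF thus lay above IDD in cluster 14 and below it in cluster 19, and both clusters had under 50 cells in IDD. In the whole class against IDD, 6 of 65 members were higher and 6 lower in IDD+HTF (background 14.4% and 9.58%), and 10 of 73 higher and 1 lower in IDD+HID (19.5% and 12.2%). Ndufv2, an iron-sulfur subunit of complex I, led in both from 47, 149 and 9 UMIs, and Cox7a2l had 221, 336 and 139 CPM. Between the treatments 14 of 73 were higher and 1 lower in IDD+HID (11.3% and 8.54%), the lower one being Sdhc at 61.6 CPM in IDD+HID and 98.4 CPM in IDD+HTF.

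In plasmacytoid dendritic-like cells only the treatments could be compared, with 122 cells in IDD+HID and 72 in IDD+HTF. There 2 of 74 members were higher and 4 lower in IDD+HID (background 10.2% and 4.85%). The 4 lower ones were Cox7c, Ndufa3, Atp5k and Ndufb4, with log2 ratios of -0.92, -0.77, -0.69 and -0.62.

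Set beside each other over the 6 classes, which share the same 3 libraries, a few members kept one sign. In IDD+HTF over IDD, 62 members were measured in all 6, of which Cox7c, Atp5k, Ndufa3 and Cox7a2l lay above 0 in every class and Atp5g1 below 0 in every class. In IDD+HID over IDD, 10 of 73 lay above 0 in every class, led by Cox7a2l and Uqcrfs1. In IDD+HID over IDD+HTF, 20 of 73 lay above 0 in every class and none below in all. Among all genes measured in the 6 classes, 9.12%, 22.8% and 26.2% lay above 0 in every class in the 3 comparisons in that order, beside 6.45%, 13.7% and 27.4% of the members, so the members did so no more often than genes at large in the comparisons with IDD and about as often between the treatments. In IDD+HID over IDD+HTF, Atp5k, Ndufa3, Cox7c and Ndufb4 lay below 0 in 5 of 6. These 4 were picked from the same ratios and no share of all genes doing so is given, so no trend of the members is read from them. The class where these 4 lay above 0 was the hepatocyte-like class, in which all 73 measured members lay above 0.

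The iron-containing subunits were set against the other members in each class that entered a comparison. In stellate-like cells the 9 iron-sulfur and heme subunits summed to 586 CPM in IDD+HTF, 621 CPM in IDD+HID and 437 CPM in IDD, 1.34-fold (1.17 to 1.54) and 1.42-fold (1.25 to 1.62) of IDD. The other members summed to 9570, 11997 and 5600 CPM, 1.71-fold (1.65 to 1.77) and 2.14-fold (2.07 to 2.22). Of the 9, 5 were at least 1.5-fold higher in each treated library, and of 65 others, 44 and 55. The intervals of the 2 sums did not overlap, but they count UMIs of 1 mouse each. Ndufv1, the NADH-binding iron-sulfur subunit, had the largest ratio of the 9, with 50.9, 54.8 and 19.1 CPM, whereas Ndufs1 had 46.6, 49.8 and 58.8 CPM and lay below IDD in both treated libraries with intervals that included 1. Ndufs7 had 108, 116 and 64.7 CPM, Ndufs8 69.5, 65.2 and 45.6, and Ndufv2 64.5, 73.8 and 42.6, all core subunits of complex I. Ndufs8 is among the 5 in IDD+HTF, but its log2 ratio to IDD turned to -0.41 there without the cells that held markers of another class. Without the cells that held markers of another class, the log2 ratios of the iron-containing sum were 0.37 in IDD+HTF and 0.72 in IDD+HID, and those of the other members 0.61 and 1.13.

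Sinusoidal endothelial-like cells showed the same order of the sums: the iron-containing subunits had 557, 619 and 540 CPM (log2 0.04 in IDD+HTF over IDD and 0.20 in IDD+HID over IDD), and the others 11321, 12603 and 9332 CPM (0.28 and 0.43). Hepatocyte-like cells had 755, 2390 and 952 CPM of iron-containing subunits (-0.33 and 1.33) and 12976, 35428 and 17003 CPM of the others (-0.39 and 1.06), the reverse order, beside the cluster shares given above. For IDD+HTF over IDD neither cluster compared showed that reverse order. Median log2 ratios of the iron-containing subunits and the others were 0.07 and 0.12 in cluster 8. In cluster 1 they were -0.997 and -0.26, with 4 of 4 measured iron-containing subunits and 9 of 53 others lower. For IDD+HID over IDD the medians in cluster 8 were 0.12 and -0.10. In Kupffer-like cells both sets lay close to IDD, with log2 ratios of -0.04 and -0.15 for the iron-containing sum and -0.06 and -0.17 for the others. B-like cells had 0.06 and 0.16 beside 0.05 and 0.16, and T-like cells -0.35 and 0.05 beside -0.29 and -0.10. Vascular endothelial-like cells had -0.12 and 0.03 beside -0.01 and 0.27. In plasmacytoid dendritic-like cells IDD+HID over IDD+HTF had 0.001 beside -0.04. No order of the 2 sets held in all of these classes.

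Isoforms marked cell classes far more sharply than the conditions did. Cox6a2, the heart and muscle isoform of complex IV subunit 6a (chr7:128205435-128206387), was found in plasmacytoid dendritic-like cells at 1826 CPM in IDD+HTF, 1644 in IDD+HID and 2270 in IDD, from 1197, 2339 and 466 UMIs. It was detected in 93.1%, 94.3% and 91.3% of these cells (72, 122 and 23 cells), and in 74.3%, 70.5% and 78.1% after thinning to 1000 UMIs. In IDD+HTF 0 of 1032 hepatocyte-like cells held a UMI of it, at a median of 2157.5 UMIs per cell, which allows up to 0.291% of cells with a UMI. Among 144 stellate-like cells it was 0 as well, at a median of 7710 UMIs and a limit of 2.08%. These limits apply to cells with a UMI, not to cells that express the gene. Sinusoidal endothelial-like cells, a class that should lack it, had 10 UMIs in 0.688% of cells in IDD+HID and 0 in the other libraries, at a median of 9916.5 UMIs per cell against 11358.5 in IDD+HID plasmacytoid dendritic-like cells. The ubiquitous form Cox6a1 was present in the same plasmacytoid dendritic-like cells at 293, 280 and 302 CPM, so both isoforms were detected in that class. Over the named classes and libraries Cox6a1 ranged from 127 CPM in hepatocyte-like cells of IDD+HTF to 443 CPM in those of IDD+HID. Plasmacytoid dendritic-like cells were not compared with IDD, which had under 50 such cells.

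Ndufa4l2, a hypoxia-inducible relative of Ndufa4 (chr10:127514967-127517154), was found in the mural classes. Stellate-like cells had 41.6 CPM in IDD+HTF, 45.5 in IDD+HID and 27.9 in IDD, in 26.4%, 30.8% and 11.8% of cells, or 3.99%, 4.29% and 2.46% when thinned to 1000 UMIs. Smooth muscle or portal fibroblast-like cells had 149, 156 and 399 CPM from 21, 31 and 20 UMIs in 6 to 13 cells per library. The other classes had at most 1.79 CPM pooled over libraries, with 2, 2 and 0 UMIs in sinusoidal endothelial-like cells. After thinning, the shares of stellate-like cells were low in all 3 libraries, and no change is read from them.

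Other members with a marked class preference were Uqcrq, a small complex III subunit, at 902 CPM pooled in hepatocyte-like cells beside a median of 214 CPM over classes, Cox5a at 588 CPM in Kupffer-like cells beside 166 CPM, and Uqcrfs1 at 216 CPM in hepatocyte-like cells beside 68.1 CPM. Ndufa4 ranged from 70.0 CPM in neutrophil-like to 818 CPM in cholangiocyte-like cells. The muscle isoform Cox7a1 had at most 26 UMIs in a class and library (Kupffer-like cells, IDD+HTF), and the testis isoform Cox6b2 had its highest CPM in mesothelial-like cells, from 5, 13 and 7 UMIs.

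**Figure D5:**
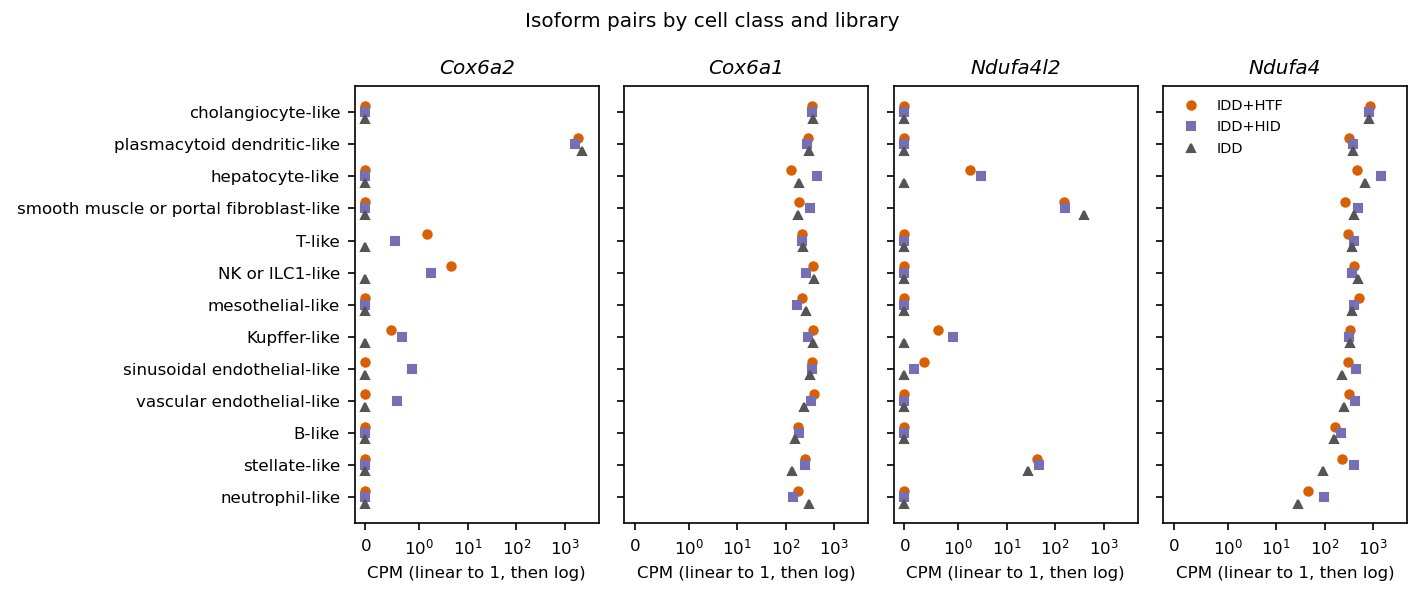
CPM (horizontal axis, linear to 1 and then log scale) of Cox6a2, Cox6a1, Ndufa4l2 and Ndufa4 in 13 cell classes (rows) of the IDD+HTF, IDD+HID and IDD libraries, 1 point per library. Cox6a2 stands at 1644 to 2270 CPM in plasmacytoid dendritic-like cells and near 0 elsewhere, and Ndufa4l2 is highest in smooth muscle or portal fibroblast-like cells.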

How the data were processed

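Single-cell RNA libraries were made with 10x Genomics droplets from 3 mouse livers. The deposited files hold UMI counts per gene and barcode, whole numbers with no normalization and with all barcodes kept. GRCm38 is the build and Seurat 4 the tool in the submitters' processing notes. Aligner and counter were not given in the sources used here. Symbols were taken from GENCODE M21, which matched 54673 of 55421 identifiers with their version.

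A barcode counted as a cell from 1000 UMIs and 300 genes upward, up to 20% mitochondrial UMIs. Cells were clustered in scanpy 1.11.5 (2000 variable genes without the members and the companion lists, 30 principal components, 15 neighbours, Leiden with igraph 0.11.9 at resolution 1, seed 1) into 24 clusters, which were named "-like" from 19 marker lists. Thresholds for the names were chosen with the cluster profiles in view, and the members and lists were chosen with earlier results of these data known. Scrublet calls were removed.

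Counts were summed per class and library as CPM. Ratios carry exact conditional binomial intervals, levels exact Poisson intervals and shares of cells Clopper-Pearson intervals, all at 95%. Classes with fewer than 50 cells in a library entered no comparison. The statistics were tested on simulated data. Named genes were the 9 iron-containing subunits, the listed isoforms, the 3 members with the largest ratio in each direction past 1.5-fold per comparison and class, and the 5 with the strongest class preference (highest over median class, pseudocount 20 CPM). In stellate-like cells further members were named after their values were seen, to describe each complex. Alternatives were the scaling (TMM and median of ratios in edgeR 4.0.16, R 4.3.3), leaving mitochondrial and ribosomal RNA out of the total, the mitochondrial limit, UMI minimums per cell and per gene, a 2-fold rule, means over cells, subtraction of free RNA and single clusters. A depth range and the removal of cells with markers of another class were added after seeing the data. Python 3.11.15, numpy 2.4.6, scipy 1.17.1, pandas 2.3.3 and matplotlib 3.10.9 were used.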

Additional observations from a re-analysis of the deposited data

Results flagged for a closer look

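The summed members had log2 ratios of opposite sign in different cell classes under the same comparison. Between IDD+HTF and IDD the log2 ratio of the summed CPM was 0.75 in stellate-like and 0.27 in sinusoidal endothelial-like cells, and -0.39 in hepatocyte-like, -0.29 in T-like and -0.058 in Kupffer-like cells. The median log2 ratios of all measured genes were 0.13, 0.02, -0.03, -0.09 and 0.07 in the same order of classes. Between IDD+HID and IDD the summed CPM had 1.07 in hepatocyte-like, 1.06 in stellate-like, 0.42 in sinusoidal endothelial-like and 0.16 in B-like cells, and -0.17 in Kupffer-like and -0.10 in T-like cells. Medians of all measured genes were 0.97, 0.19, -0.01, 0.13, 0.11 and 0.05 in that order. In this comparison TMM scaling shifted the log2 ratios by -0.94 in hepatocyte-like and 0.09 in T-like cells, close in size to their members' ratios. With 1 mouse per group the differences between classes were not tested. In hepatocyte-like cells the value within cluster 8 was 0.10 for IDD+HTF over IDD and -0.078 for IDD+HID over IDD, both opposite in sign to the class, and within cluster 1 it was -0.26 for IDD+HTF over IDD.

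The droplets of 100 UMIs or fewer, which entered the comparisons only through the alternative that subtracts free RNA, also carried the members, at 6153 CPM (IDD+HTF) and 7287 CPM (IDD+HID), against 3911 CPM (IDD). Hepatocyte markers in the same droplets summed to 19835, 23414 and 11127 CPM, 1.78-fold and 2.10-fold of IDD, beside 1.57-fold and 1.86-fold for the members. The mtDNA-encoded subunits took 270317, 322801 and 286978 CPM of the same droplets.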

How the results depend on the processing

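No paired analysis was possible because each group is 1 mouse. Without a replicate, no alternative leaves one out. Over all counts of members per comparison and class, 163 alternatives kept the count within 1.5 times, 75 moved it further, and 9 put more members on the opposite side than on the reported one. In the counts below, "higher" and "lower" mean past 1.5-fold, and the cause of a move was not tested unless the alternative itself sets it. The share of all genes moves with the setting too. In hepatocyte-like cells, 14.3% of all genes were lower in IDD+HTF than in IDD under the main limits. That share was 28.1% at a mitochondrial limit of 10% and 6.27% at 40%. Where no share stands beside a count, here or above, a move is not read as particular to the members.

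Scaling shifted the log2 ratios of whole classes, under TMM by 0.14 and 0.24 in sinusoidal endothelial-like, 0.18 and 0.20 in stellate-like and 0.11 and -0.94 in hepatocyte-like cells for IDD+HTF and IDD+HID over IDD. Under TMM the members higher in sinusoidal endothelial-like cells were 17 in IDD+HTF over IDD, 41 in IDD+HID over IDD and 8 in IDD+HID over IDD+HTF, the members lower in IDD+HTF over IDD were 12 in hepatocyte-like and 7 in T-like cells, those lower in IDD+HID over IDD were 2 in Kupffer-like and 1 in T-like cells, and those higher in hepatocyte-like cells were 6 in IDD+HID over IDD and 29 in IDD+HID over IDD+HTF. Under median-of-ratios scaling the sinusoidal endothelial-like counts were 20, 44 and 10, the lower counts 7 in T-like cells for IDD+HTF, 2 in Kupffer-like and 1 in T-like cells for IDD+HID, and the higher counts 8 and 37 in hepatocyte-like cells and, in IDD+HID over IDD+HTF, 5 in B-like and 5 in T-like cells. With mitochondrial and ribosomal RNA left out of the total, the higher counts were 3 and 2 in sinusoidal endothelial-like cells for IDD+HTF over IDD and IDD+HID over IDD+HTF and 46 in hepatocyte-like cells for IDD+HID over IDD.

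Cell limits mattered as follows. At a mitochondrial limit of 10%, 54 hepatocyte-like and 6 T-like members were lower in IDD+HTF and 1 T-like member in IDD+HID over IDD. At 40% with new clusters, 8 sinusoidal endothelial-like members were higher and 2 hepatocyte-like and 1 Kupffer-like lower in IDD+HTF, and 1 Kupffer-like lower in IDD+HID. With cells of 2000 UMIs or more, 34 hepatocyte-like members were lower in IDD+HTF. In cells of 2000 to 8000 UMIs, IDD+HTF over IDD had 14 Kupffer-like, 37 hepatocyte-like and 4 T-like members lower and 16 stellate-like higher, IDD+HID over IDD had 5 Kupffer-like lower with more on the higher side, and IDD+HID over IDD+HTF had 9 sinusoidal endothelial-like and 6 T-like higher and 1 Kupffer-like lower, again with more higher; IDD+HID stellate-like cells were too few. Without cells with markers of another class, stellate-like members higher were 30 in IDD+HTF over IDD and 37 in IDD+HID over IDD+HTF. Means over cells gave 15, 32 and 9 sinusoidal endothelial-like members higher in the 3 comparisons, 11 hepatocyte-like lower in IDD+HTF, 23 stellate-like higher in IDD+HID over IDD+HTF, and 1 and 2 Kupffer-like lower in the comparisons with IDD, with more members higher. Free RNA subtraction, not run for hepatocyte-like cells, gave 20 and 38 Kupffer-like members lower.

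With genes of 200 UMIs or more, which tests fewer genes, the counts were 24 stellate-like and 2 B-like higher and 1 Kupffer-like and 4 T-like lower in IDD+HTF, 3 B-like higher and 1 T-like lower in IDD+HID, and 5 B-like and 7 T-like higher in IDD+HID over IDD+HTF. The 2-fold rule, stricter by construction, left in IDD+HTF over IDD 23 stellate-like, 1 B-like and 0 sinusoidal endothelial-like higher and 3 hepatocyte-like, 2 T-like and 0 Kupffer-like lower, in IDD+HID over IDD 39 stellate-like, 44 hepatocyte-like, 3 sinusoidal endothelial-like and 3 B-like higher and 0 Kupffer-like and 0 T-like lower, and in IDD+HID over IDD+HTF 0 stellate-like, sinusoidal endothelial-like and B-like and 1 T-like higher and 0 Kupffer-like lower.

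Single clusters gave 9 (cluster 0) and 10 (cluster 4) sinusoidal endothelial-like members higher in IDD+HTF, 31 (cluster 4) in IDD+HID, and 9 (cluster 4) between treatments. Cluster 8 gave 4 hepatocyte-like members lower in IDD+HTF, 3 higher in IDD+HID and 2 higher between treatments, cluster 9 gave 1 T-like lower in IDD+HID, and Kupffer-like lower counts between treatments were 3 in cluster 2 and 2 in cluster 16. Clusters with under 50 cells in a library gave no value. Within cluster 8 the log2 ratio of IDD+HID over IDD turned to -0.078 for all members, -0.17, -0.078, -0.036 and -0.037 for complexes I, III, IV and V, -0.10 for the members without iron cofactors, -0.046 for Ndufv1 and -0.079 for Ndufv2. For the whole class Ndufv1 turned to -0.13 and Sdhc to -0.053 under TMM, and Ndufv1 to -0.032 under median-of-ratios scaling. Ndufs8 turned to -0.41 in IDD+HTF over IDD in stellate-like cells without markers of another class, and Cox6b2 to -2.09 in IDD+HID over IDD in Kupffer-like cells of 2000 to 8000 UMIs.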
